A study of Homo sapiens with 16 samples.

Results

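The genes described here encode 10 receptor tyrosine kinases that bind growth factors at the cell surface: EGFR, ERBB2 and ERBB3 of the ERBB family, MET, the fibroblast growth factor receptors FGFR1 to FGFR4, and the insulin and insulin-like growth factor receptors INSR and IGF1R. They were chosen by name, and all 10 were found once each among the 55510 gene symbols counted and were among the 22007 symbols with enough counts to be tested. RNA was sequenced from 16 libraries of CAL51 cells, a human breast cancer line of the triple-negative type with a near-diploid karyotype. CC-671 is a small molecule known to inhibit TTK, a mitotic checkpoint kinase, and CLK2, which phosphorylates splicing factors. The 4 treated groups received CC-671 at 3 µM or 10 µM for 6 h or 24 h, with 3 libraries each, and the 2 vehicle groups received DMSO for 6 h or 24 h, with 2 libraries each. All cells were of this 1 line at passage 10, grown in medium with fetal bovine serum, and no other drug, transgene or deletion is named in the labels. The libraries of a group are called biological replicates in the labels, so p-values reflect how far such libraries vary among themselves.

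Many receptors of this kind pair up when their ligand binds and phosphorylate each other on tyrosines that recruit adaptor proteins. Through these adaptors they switch on the RAS and ERK cascade and the PI3K and AKT pathway, which drive growth, survival and movement of epithelial cells. Several of them are drug targets in breast cancer, and triple-negative tumours are defined by the lack of oestrogen and progesterone receptors and of ERBB2 amplification or overexpression. The counts measure messenger RNA of each gene, all splice forms together, and say nothing of receptor protein, surface display or phosphorylation.

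Each library held between 104609173 and 123789361 read pairs counted at genes, and the receptor genes had 1062 to 27767 pairs per library. Their coefficient of variation within a group ran between 0.107% and 6.58% over the 60 combinations of gene and group. The hormone receptor genes ESR1 and PGR had at most 6 and 4 counts in any library, which matches the triple-negative label, while messenger RNA of ERBB2 was present in all 16 libraries. Luminal keratin genes and mesenchymal markers were expressed, whereas the basal keratins KRT5 and KRT14 had at most 1 count in a library. CPM is a count scaled by its library's total, here also by TMM factors except in the sums of marker genes. The 8 leukocyte markers, with CD3E at or near 0, summed to between 11.5 and 12.4 CPM at 10 µM and 6 h, against 10.6 and 10.7 CPM with DMSO at 6 h. At 10 µM and 24 h they summed to between 6.81 and 7.48 CPM, against 13 and 13.6 CPM with DMSO at 24 h. Most of that sum was PTPRC, which averaged 5.28 CPM at 10 µM and 24 h, against 12.7 CPM with DMSO at 24 h. Of the 6 leukocyte markers tested, at 10 µM 2 were called higher and 1 lower at 6 h, while 2 were higher and 2 lower at 24 h, the 2 higher ones at both times being CD14 (2.77 CPM at 10 µM and 6 h, against 0.152 CPM with DMSO) and CD74 (0.258 CPM, against 0.0467 CPM). The 7 fibroblast markers summed to between 1652 and 1748 CPM at 10 µM and 6 h, against 1314 and 1323 CPM with DMSO at 6 h, and to between 1184 and 1215 CPM at 10 µM and 24 h, against 1226 and 1239 CPM with DMSO at 24 h. Most of the fibroblast sum was PDPN, which averaged 1138 CPM with DMSO at 6 h and 992 CPM with DMSO at 24 h. Of the 5 fibroblast markers tested, 4 rose at 10 µM and 6 h and 5 fell at 10 µM and 24 h. DCN and THY1 were at or near 0. Over all genes tested, 34.0% were called higher and 33.6% lower at 10 µM and 6 h, and 31.3% and 32.3% at 24 h. Nothing particular to a cell type is read from these counts of markers. The part of these markers in the receptor values was not tested. Read pairs outside annotated exons were taken as a share of the pairs at genes, outside exons or ambiguous between genes. That share was 6.65 ± 0.377% at 10 µM and 6 h, against 4.57 ± 0.267% with DMSO at 6 h (SD, n = 3 and 2). At 24 h it was 5.93 ± 0.203% at 10 µM, against 4.43 ± 0.238% with DMSO. The part of that difference in the receptor values was not tested either.

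To compare levels between the receptor genes, CPM were divided by the length of each gene's annotated exons. In DMSO at 6 h, FGFR2 stood first at 34.8 ± 0.313 CPM per kb of exon, followed by ERBB2 at 32.4 ± 1.29, MET at 22.1 ± 0.249 and FGFR1 at 20.7 ± 0.626 CPM per kb (SD, n = 2). FGFR3 and FGFR4 had 15.1 ± 0.223 and 14.3 ± 0.134 CPM per kb in the same libraries. EGFR, at 7.34 ± 0.439 CPM per kb, IGF1R, at 4.01 ± 0.159 CPM per kb, INSR, at 2.96 ± 0.118 CPM per kb, and ERBB3, at 2.08 ± 0.0303 CPM per kb, were the lowest. No 2 neighbours in that order had overlapping libraries. Per kb, the FGFR genes and ERBB2 thus stood above EGFR, with ERBB2 at 4.43 ± 0.441 times the EGFR level in DMSO at 6 h. For FGFR3 and FGFR4 this order rests on exon lengths of 4.46 and 3.196 kb, against 11.333 kb for EGFR. Before that division EGFR averaged 83.2 CPM in the same libraries, above FGFR3 at 67.3 CPM and FGFR4 at 45.7 CPM. ERBB2, FGFR1 and FGFR2 were above EGFR in CPM too, at 184, 135 and 233 CPM. The annotation used for counting is not stated, so these lengths may differ from those of the counted exons.

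The order of levels per kb changed with treatment. At 6 h, FGFR2 stayed first at both doses and FGFR1 took the second place, ahead of ERBB2 and MET. At 24 h, MET led at both doses, with 20.8 ± 0.29 CPM per kb at 3 µM and 21.5 ± 0.669 CPM per kb at 10 µM (SD, n = 3 each), although at 3 µM its libraries overlapped those of ERBB2, and those of ERBB2 overlapped those of FGFR2. ERBB2 and MET also overlapped at 10 µM and 6 h, and all other neighbours in each group were separate. Summed over the 10 genes, levels were 118 ± 0.981 CPM per kb at 10 µM and 6 h and 116 ± 2.11 CPM per kb at 3 µM and 6 h, against 156 ± 0.965 CPM per kb with DMSO at 6 h. At 24 h the sums were 116 ± 0.077 CPM per kb at 10 µM and 121 ± 2.39 CPM per kb at 3 µM, against 165 ± 0.453 CPM per kb with DMSO. The treated and vehicle sums did not overlap at either time.

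**Figure D1:**
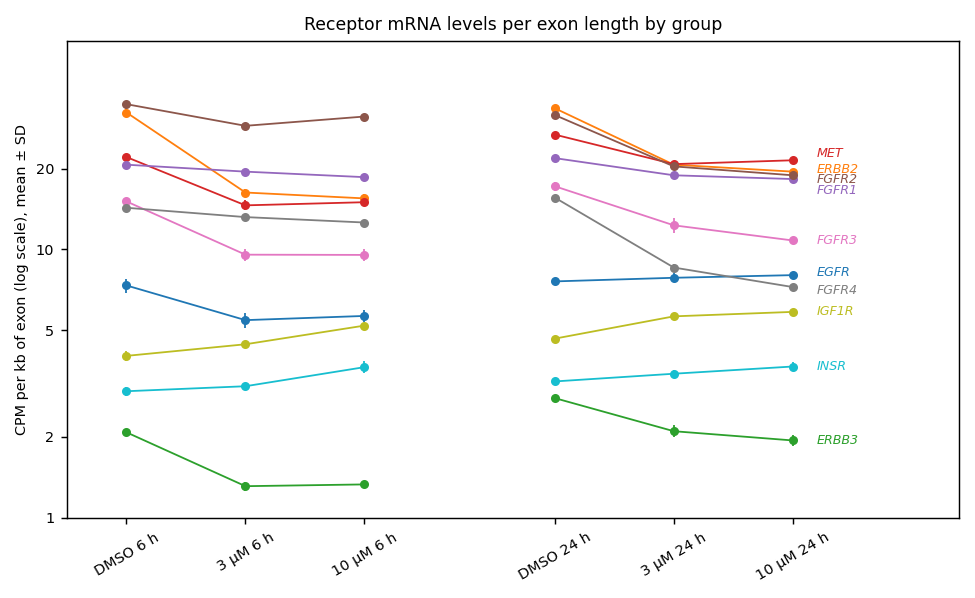
Receptor messenger RNA per exon length in each group, in CPM per kb on a log axis (mean ± SD, 3 treated or 2 DMSO libraries), with the dose series at 6 h on the left and at 24 h on the right. FGFR2 and ERBB2 lead in DMSO at 34.8 and 32.4 CPM per kb at 6 h, ERBB3 is lowest in every group, and FGFR4 ends below EGFR at 10 µM and 24 h.

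The promoter sequences of 4 genes are shown because these genes mark the extremes of the response: ERBB2 and FGFR4 fell most, and IGF1R and INSR were called higher than DMSO in at least 2 comparisons each. Each run is the 250 bases before the gene's annotated start, written 5′ to 3′ on the gene's strand from the RefSeq promoter table of GRCh38.p14. Capitals mark GC boxes (GGGCGG, or CCGCCC on the other strand) and CCAAT boxes (CCAAT, or ATTGG on the other strand). The positions are chr17:39687844-39688093 on the plus strand for ERBB2, chr5:177086665-177086914 on the plus strand for FGFR4, chr15:98648289-98648538 on the plus strand for IGF1R and chr19:7294415-7294664 on the minus strand for INSR.
ERBB2: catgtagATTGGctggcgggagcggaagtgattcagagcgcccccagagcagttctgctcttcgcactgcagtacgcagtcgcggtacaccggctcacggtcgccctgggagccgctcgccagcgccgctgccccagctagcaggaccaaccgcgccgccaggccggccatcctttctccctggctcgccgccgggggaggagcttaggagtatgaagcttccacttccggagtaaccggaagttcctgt
FGFR4: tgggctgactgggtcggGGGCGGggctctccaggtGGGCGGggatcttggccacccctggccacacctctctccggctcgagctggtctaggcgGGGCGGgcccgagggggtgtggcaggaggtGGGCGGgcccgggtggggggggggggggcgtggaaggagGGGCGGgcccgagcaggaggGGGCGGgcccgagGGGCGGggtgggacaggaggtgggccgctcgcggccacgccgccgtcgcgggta
IGF1R: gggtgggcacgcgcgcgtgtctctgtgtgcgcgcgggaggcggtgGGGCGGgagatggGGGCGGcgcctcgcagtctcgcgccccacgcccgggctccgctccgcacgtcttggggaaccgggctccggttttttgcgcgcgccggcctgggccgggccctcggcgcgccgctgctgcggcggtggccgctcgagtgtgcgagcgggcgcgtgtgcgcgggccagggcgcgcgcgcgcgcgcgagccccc
INSR: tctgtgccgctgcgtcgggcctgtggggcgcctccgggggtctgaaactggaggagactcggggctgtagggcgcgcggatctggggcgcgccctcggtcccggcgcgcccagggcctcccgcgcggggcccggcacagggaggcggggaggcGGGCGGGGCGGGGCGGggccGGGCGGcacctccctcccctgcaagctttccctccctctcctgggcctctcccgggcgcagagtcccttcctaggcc

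The 4 runs differ in their capitals. The ERBB2 window held 1 CCAAT box and no GC box, whereas the windows of FGFR4, IGF1R and INSR held 7, 2 and 4 GC boxes and no CCAAT box, with overlapping GC boxes in INSR. Windows of 8 of the 10 receptor genes were used, taking the first in the table where a gene has several. ERBB3 had no entry there. Windows on chromosome 8 were left out for the receptor genes, which removed FGFR1, but were kept for the shares. Those shares are given over the first window of each of 27305 genes. GC boxes occurred in 7 of the 8, against 42.3% of all first windows, and CCAAT boxes in 2 of the 8, ERBB2 and FGFR2, against 33% of them. A TATA box (TATAAA, or TTTATA on the other strand) occurred in 0 of the 8, against 11.1% of first windows. The FOXO motif (GTAAACA, or TGTTTAC on the other strand) occurred in 0 of the 8, against 2.98% of first windows, and the AP-2 motif (GCCNNNGGC, the same on both strands) in 3 of the 8, EGFR, IGF1R and INSR, against 19.7% of first windows. The 8 windows were 65.6 to 86.8% G and C, and the median of first windows was 58%. EGFR, FGFR2 and FGFR4 have 6 further windows in the table, of 38.8 to 57.2% G and C, of which 1 held a GC box, 2 a CCAAT box, 1 a TATA box (EGFR), 0 a FOXO motif and 1 an AP-2 motif. For ERBB2 only 1 window was available, so any other start of that gene is not covered. Which of a gene's starts was used in these cells was not measured. A match describes the letters of a window and shows neither a bound site nor a cause of these changes.

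Against DMSO, most receptor genes fell at both times and IGF1R rose. In the comparisons with vehicle, 2 receptor genes changed by at least 2-fold: ERBB2 at 10 µM and 6 h, and FGFR4 at 10 µM and 24 h. Of all 22007 genes tested, 1489 were called at least 2-fold lower and 2362 higher at 10 µM and 6 h. At 10 µM and 24 h, 807 were called at least 2-fold lower and 2054 higher. Nothing particular to the receptor genes is read from the count of 2. A gene was called changed at an adjusted p under 0.05 from edgeR's quasi-likelihood test over all 22007 genes. At 3 µM and 6 h, 8 receptor genes fell and 1 rose, against 31.6% of all tested genes lower and 31.6% higher. At 10 µM and 6 h, 8 fell and 2 rose, against 33.6% of all genes lower and 34.0% higher. The median log2 fold change of the 10 genes was −0.35 at 3 µM and −0.28 at 10 µM, beside 0.02 and 0.01 for all genes tested.

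At 24 h the counts were alike. At 3 µM and 24 h, 7 receptor genes fell and 1 rose, against 30.9% of all genes lower and 29.7% higher. At 10 µM and 24 h, 7 fell and 2 rose, against 32.3% of all genes lower and 31.3% higher. The median log2 fold change of the 10 genes was −0.39 at 3 µM and −0.42 at 10 µM, beside 0.00 and 0.01 for all genes. Without a library scaling factor the median of all genes at 24 h stood at 0.10 for 3 µM and 0.12 for 10 µM, and the share of higher genes among the called ones was 62.9% at 3 µM, against 48.9% with scaling, and 62.3% at 10 µM, against 49.2% with scaling. All 10 receptor genes were then called at 24 h at each dose, 3 of them higher. In all 4 comparisons with DMSO, the treated libraries of every receptor gene lay on 1 side of both vehicle libraries. The share of all genes separated in this way was not counted. Nothing particular to the receptor genes is therefore read from it. The comparisons of both doses at a time share their vehicle libraries and are not independent.

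A second background was chosen after the values were seen. The receptor genes have 17 to 31 annotated exons, and 1641 protein-coding genes had as many and at least the lowest receptor gene's average level. Of these, 72.5% fell and 15.2% rose at 10 µM and 6 h, with a median log2 fold change of −0.36. At 10 µM and 24 h, 56.7% fell and 23.1% rose, with a median of −0.15. The receptor genes, with 8 of 10 falling at 6 h, were not tested against these genes.

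**Figure D2:**
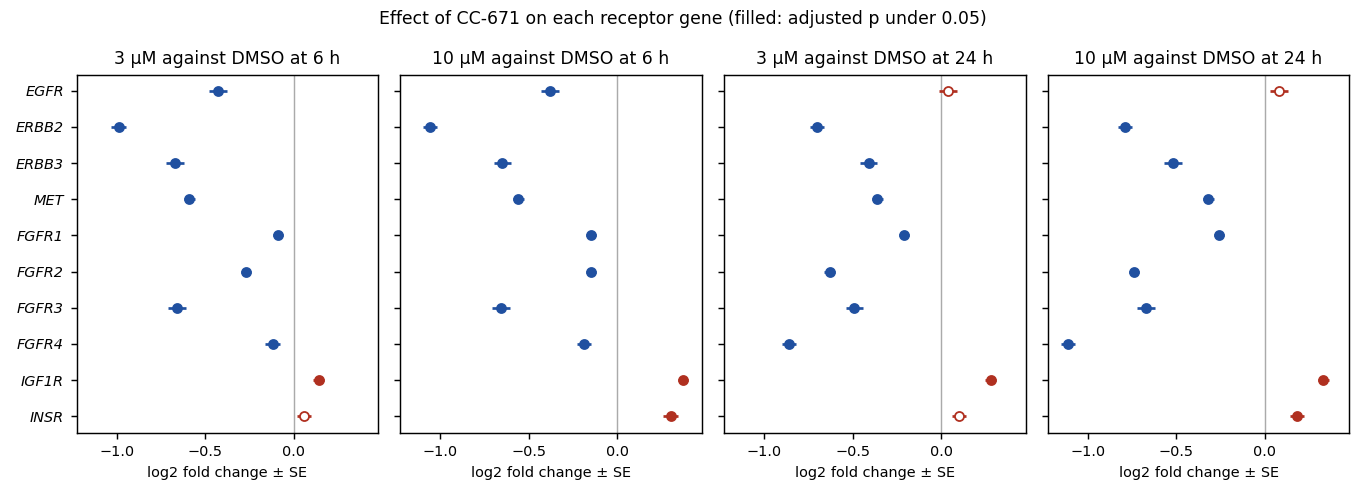
Log2 fold change ± SE of each receptor gene for each dose against DMSO at 6 h and at 24 h, from edgeR, with filled points for adjusted p under 0.05. ERBB2 lies farthest left at 6 h (−0.99 and −1.06) and FGFR4 at 24 h (−0.86 and −1.11), while IGF1R is right of 0 in all 4 panels.

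In the ERBB family, ERBB2 fell at every dose and time. ERBB2 encodes HER2, which has no known ligand of its own and signals as the preferred partner of the other ERBB receptors. Over the dose series at 6 h, ERBB2 stood at 189 and 178 CPM with DMSO, 95.3, 89.4 and 92.5 CPM at 3 µM, and 88.2, 84.7 and 91.0 CPM at 10 µM. Every treated library lay near 90 CPM, far below both DMSO libraries. The log2 fold change was −0.99 ± 0.04 at 3 µM (adjusted p = 3.68e-19) and −1.06 ± 0.04 at 10 µM (adjusted p = 5.1e-20), a 2.09-fold lower level at 10 µM. Over the dose series at 24 h, ERBB2 stood at 192 and 189 CPM with DMSO, 121, 115 and 116 CPM at 3 µM, and 109, 113 and 108 CPM at 10 µM. These treated libraries were again below DMSO without overlap but above all those treated for 6 h. The log2 fold change was −0.70 ± 0.04 at 3 µM and −0.79 ± 0.04 at 10 µM (adjusted p = 1.28e-15 and 6.83e-17). Exons of ERBB2 overlap those of PGAP3 on the opposite strand in GENCODE 29, and PGAP3 had 1254 to 1572 counts per library. The strand setting of the counting is not given in the sources used here, so the sharing of reads between the 2 genes is uncertain.

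EGFR and ERBB3 followed ERBB2 down at 6 h, but EGFR did not stay down. EGFR binds EGF, TGF-alpha and amphiregulin. Its levels in the 6 h dose series were 79.7 and 86.7 CPM with DMSO, 64.5, 57.4 and 63.3 CPM at 3 µM, and 67.9, 61.3 and 63.0 CPM at 10 µM. In the 24 h series they were 86.5 and 85.8 CPM with DMSO, 92.8, 87.1 and 86.8 CPM at 3 µM, and 89.1, 90.5 and 93.0 CPM at 10 µM. At 6 h all treated libraries were below DMSO, and at 24 h they were all slightly above it. EGFR fell by 0.43 ± 0.05 on the log2 scale at 3 µM and 6 h (adjusted p = 9.61e-08) and by 0.38 ± 0.05 at 10 µM and 6 h (adjusted p = 5.83e-07). At 24 h EGFR did not pass the test, with log2 fold changes of 0.04 at 3 µM (95% interval −0.05 to 0.14, adjusted p = 0.448) and 0.08 at 10 µM (−0.02 to 0.17, adjusted p = 0.183). Without a scaling factor it was called higher at both doses (0.15 and 0.19, adjusted p = 0.0176 and 0.00319), and in a fit of the compared groups alone at 10 µM (0.09, adjusted p = 3.4e-04).

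ERBB3 binds neuregulins, has little kinase activity of its own and recruits PI3K when paired with ERBB2. It was the lowest of the receptor genes, at 15.3 and 15.6 CPM with DMSO, 10.2, 9.54 and 9.44 CPM at 3 µM, and 9.54, 9.90 and 10.2 CPM at 10 µM in the 6 h series. The 24 h series gave 21.2 and 20.3 CPM with DMSO, 14.7, 16.0 and 16.1 CPM at 3 µM, and 15.2, 14.1 and 14.0 CPM at 10 µM. No treated library reached the DMSO libraries of its time, although the treated levels at 24 h were close to DMSO at 6 h. ERBB3 fell by 0.67 ± 0.05 and 0.65 ± 0.05 on the log2 scale at 3 and 10 µM and 6 h (adjusted p = 7.61e-12 and 1.19e-11), and by 0.41 ± 0.05 and 0.52 ± 0.05 at 24 h (adjusted p = 6.14e-08 and 6.13e-10). With ERBB2 lower and EGFR not called at 24 h, the ratio of ERBB2 to EGFR per kb was 2.43 ± 0.0871 at 10 µM and 2.64 ± 0.0374 at 3 µM, against 4.42 ± 0.00989 with DMSO at 24 h.

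MET, the receptor of hepatocyte growth factor, fell at both times and less at 24 h. The 6 h series gave 147 and 149 CPM with DMSO, 97.4, 94.1 and 102 CPM at 3 µM, and 102, 99.2 and 100 CPM at 10 µM. In the 24 h series MET stood at 179 and 180 CPM with DMSO, 137, 141 and 140 CPM at 3 µM, and 146, 139 and 147 CPM at 10 µM. The 2 doses lay on top of each other at both times, below DMSO. Its log2 fold change was −0.59 ± 0.03 and −0.56 ± 0.03 at 3 and 10 µM and 6 h (adjusted p = 7.27e-15 and 1.87e-14), and −0.36 ± 0.03 and −0.32 ± 0.03 at 24 h (adjusted p = 3.66e-10 and 3.82e-09).

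**Figure D3:**
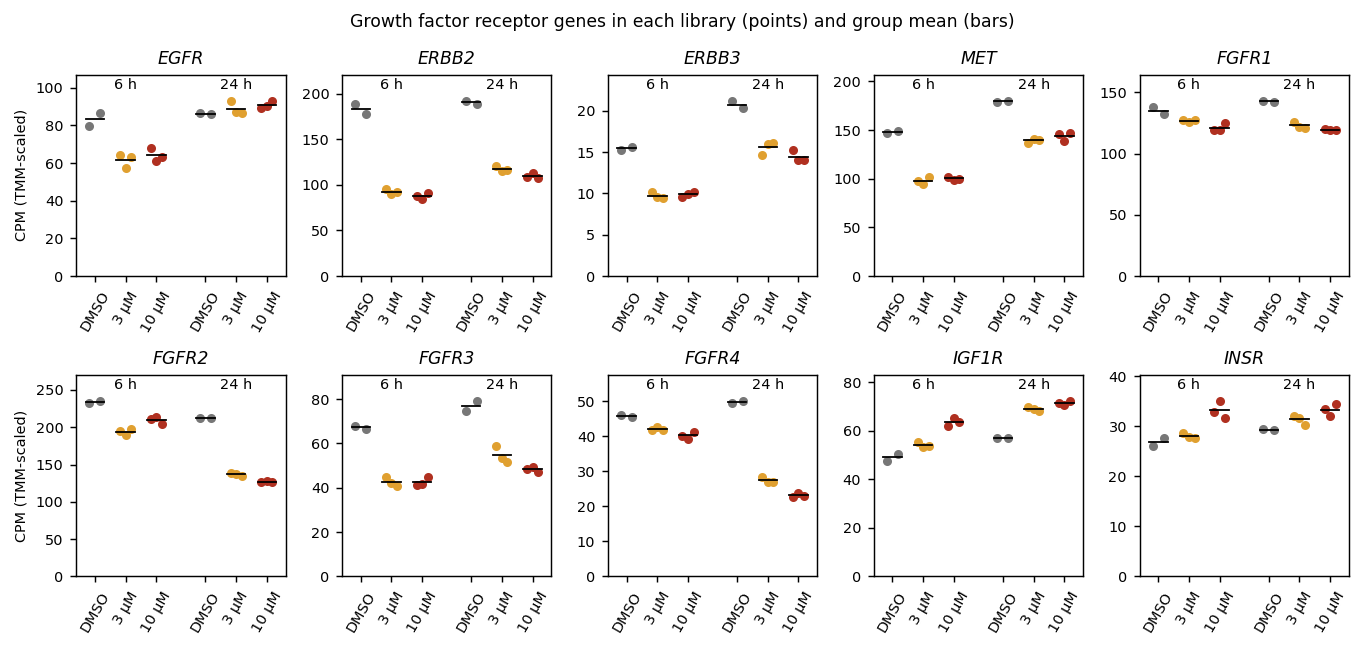
Level of each receptor gene in each of the 16 libraries, in CPM scaled by TMM (points) with the group mean (bars), with the dose series at 6 h on the left and at 24 h on the right of each panel. ERBB2 lies between 84.7 and 95.3 CPM in all treated libraries at 6 h, and FGFR4 between 22.7 and 28.3 CPM in all treated libraries at 24 h.

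The 4 fibroblast growth factor receptors fell in all 4 comparisons with DMSO, but at different times. FGFR1 to FGFR3 bind many fibroblast growth factors with specificity set by alternative exons of an immunoglobulin-like domain, and FGFR4 responds to FGF19 together with the co-receptor KLB. FGFR3 was an early faller, with 68.0 and 66.6 CPM with DMSO, 45.0, 42.0 and 41.0 CPM at 3 µM, and 41.2, 41.5 and 44.9 CPM at 10 µM in the 6 h series. At 24 h FGFR3 had 74.7 and 79.1 CPM with DMSO, 58.7, 53.4 and 51.8 CPM at 3 µM, and 48.6, 49.3 and 46.9 CPM at 10 µM. Both series were below DMSO without overlap, and at 24 h every library at 10 µM was also below every library at 3 µM. The log2 fold change of FGFR3 was −0.66 ± 0.05 at both doses at 6 h (adjusted p = 3.52e-11 and 2.41e-11), −0.49 ± 0.05 at 3 µM and 24 h (adjusted p = 6.76e-09) and −0.67 ± 0.05 at 10 µM and 24 h (adjusted p = 2.61e-11).

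FGFR4 and FGFR2 were late fallers. FGFR4 had 46.0 and 45.4 CPM with DMSO, 41.8, 42.6 and 41.9 CPM at 3 µM, and 40.1, 39.3 and 41.3 CPM at 10 µM in the 6 h series. In the 24 h series it had 49.6 and 50.0 CPM with DMSO, 28.3, 27.0 and 26.8 CPM at 3 µM, and 22.7, 23.8 and 23.0 CPM at 10 µM. The 6 h libraries were narrowly separated, and the 24 h libraries fell into 3 separate levels in the order of dose. FGFR4 fell by 0.12 ± 0.04 and 0.19 ± 0.04 on the log2 scale at 3 and 10 µM and 6 h (adjusted p = 0.00436 and 4.21e-05), and by 0.86 ± 0.04 and 1.11 ± 0.04 at 24 h (adjusted p = 2.01e-17 and 6.69e-20), a 2.15-fold lower level at 10 µM. The FGFR2 levels were 232 and 235 CPM with DMSO, 195, 189 and 197 CPM at 3 µM, and 211, 214 and 205 CPM at 10 µM in the 6 h series. At 24 h they were 213 and 212 CPM with DMSO, 139, 137 and 134 CPM at 3 µM, and 126, 128 and 127 CPM at 10 µM. At 6 h the lower dose thus gave the lower FGFR2 level, and at 24 h the higher dose did, with no overlap between the doses at either time. FGFR2 fell by 0.27 ± 0.03 at 3 µM and 0.15 ± 0.03 at 10 µM on the log2 scale at 6 h (adjusted p = 6.62e-09 and 5.25e-05), and by 0.63 ± 0.03 and 0.74 ± 0.03 at 24 h (adjusted p = 2.21e-16 and 4.97e-18).

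FGFR1 moved least among the 4. In the 6 h series it had 138 and 132 CPM with DMSO, 127, 126 and 127 CPM at 3 µM, and 119, 119 and 125 CPM at 10 µM, and in the 24 h series 143 and 142 CPM with DMSO, 126, 122 and 121 CPM at 3 µM, and 120, 119 and 119 CPM at 10 µM. Treated libraries were below DMSO by a narrow gap at 6 h and a wider one at 24 h. FGFR1 fell by 0.09 ± 0.03 and 0.15 ± 0.03 on the log2 scale at 3 and 10 µM and 6 h (adjusted p = 0.0178 and 1.11e-04), and by 0.21 ± 0.03 and 0.26 ± 0.03 at 24 h (adjusted p = 1.39e-06 and 5.37e-08). Its call at 3 µM and 6 h was lost without DMSO replicate 1 of 6 h (adjusted p = 0.134), without a scaling factor (0.0808), with a stricter filter on low counts (0.0838) and in a fit of the compared groups alone (0.0513). With FGFR4 falling more than FGFR1, the ratio of FGFR4 to FGFR1 per kb was 0.395 ± 0.0116 at 10 µM and 0.454 ± 0.00323 at 3 µM, against 0.712 ± 0.00542 with DMSO at 24 h. The ratio of FGFR2 to FGFR1 per kb was 1.03 ± 0.0167 at 10 µM and 1.08 ± 0.0109 at 3 µM, against 1.45 ± 0.002 with DMSO at 24 h.

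IGF1R and INSR went the other way. IGF1R binds IGF1 and IGF2, INSR binds insulin, and the 2 proteins can form hybrid receptors. IGF1R had 47.7 and 50.5 CPM with DMSO, 55.6, 53.3 and 53.9 CPM at 3 µM, and 62.0, 65.3 and 63.5 CPM at 10 µM in the 6 h series, and 56.9 and 57.0 CPM with DMSO, 69.7, 69.0 and 68.1 CPM at 3 µM, and 71.7, 70.8 and 72.3 CPM at 10 µM in the 24 h series. DMSO, 3 µM and 10 µM formed 3 ascending levels without overlap at both times. IGF1R rose by 0.14 ± 0.03 and 0.37 ± 0.03 on the log2 scale at 3 and 10 µM and 6 h (adjusted p = 5.97e-04 and 1.49e-10), and by 0.28 ± 0.03 and 0.33 ± 0.03 at 24 h (adjusted p = 7.12e-08 and 2.07e-09). Its call at 3 µM and 6 h was lost without DMSO replicate 1 of 6 h (0.09, adjusted p = 0.0717).

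INSR had 26.1 and 27.7 CPM with DMSO, 28.7, 27.9 and 27.7 CPM at 3 µM, and 32.8, 35.0 and 31.7 CPM at 10 µM in the 6 h series. At 24 h it had 29.4 and 29.2 CPM with DMSO, 32.1, 31.6 and 30.3 CPM at 3 µM, and 33.5, 32.0 and 34.4 CPM at 10 µM. The lower dose lay just above DMSO at 6 h, its lowest library matching the highest DMSO library at 3 digits, and at 24 h the 2 doses overlapped. INSR rose at 10 µM by 0.30 ± 0.04 on the log2 scale at 6 h (adjusted p = 7.33e-07) and by 0.18 ± 0.04 at 24 h (adjusted p = 5.85e-04). At 3 µM it did not pass the test at 6 h (0.06, 95% interval −0.02 to 0.15, adjusted p = 0.211) or at 24 h (0.10, 0.01 to 0.18, adjusted p = 0.0592). The 24 h value was called without a scaling factor (0.20, adjusted p = 3.12e-04), with the stricter filter (0.13, 0.00977), in a fit of the compared groups alone (0.11, 0.00396) and without replicate 3 of that group (0.12, 0.0352). The ratio of ERBB2 to IGF1R per kb was 2.99 ± 0.163 at 10 µM and 3.68 ± 0.0471 at 3 µM, against 8.09 ± 0.642 with DMSO at 6 h.

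The 2 doses were then compared directly. At 6 h, 10 µM gave higher levels than 3 µM of 3 receptor genes and lower levels of 0, against 12.0% of all genes higher and 12.9% lower. These were IGF1R (log2 fold change of 10 µM over 3 µM 0.23 ± 0.03, adjusted p = 3.68e-06), INSR (0.24 ± 0.04, adjusted p = 5.52e-05) and FGFR2 (0.12 ± 0.03, adjusted p = 0.00183). For the strongest faller at 6 h, ERBB2, the difference between doses was −0.07 (95% interval −0.13 to −0.01, adjusted p = 0.118). The intervals of EGFR (−0.03 to 0.14), MET (−0.03 to 0.09), ERBB3 (−0.07 to 0.12) and FGFR3 (−0.09 to 0.08) held 0. Of the 10 genes, 5 had no overlap between the doses, and the share of all genes without overlap was not counted.

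At 24 h, 10 µM gave lower levels than 3 µM of 3 receptor genes and higher levels of 0, against 3.85% of all genes lower and 2.49% higher. FGFR4 had the largest difference among them, at −0.24 ± 0.03 (adjusted p = 4.61e-05), followed by FGFR3 at −0.18 ± 0.04 (adjusted p = 0.0158) and FGFR2 at −0.11 ± 0.03 (adjusted p = 0.0153). The FGFR4 call was kept without each library in turn. The FGFR2 and FGFR3 calls were both lost without 3 µM replicate 1 (adjusted p = 0.0731 and 0.101) or 10 µM replicate 3 (0.0542 and 0.087), and FGFR2 also without 3 µM replicate 2 (0.0553) or 10 µM replicate 1 (0.073). Without a scaling factor 50.2% of the called genes were higher at 10 µM, against 39.3% with scaling. Of the 10 genes, 6 had no overlap between the doses, again without a count over all genes.

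Time in vehicle moved several receptor genes too. In DMSO, 5 receptor genes were higher at 24 h than at 6 h and 1 was lower, against 11.0% of all genes higher and 9.55% lower. Of the 1641 expressed protein-coding genes with 17 to 31 exons, 31% were higher and 5.48% lower, and the receptor genes were not tested against these. ERBB3 was higher by 0.43 ± 0.06 on the log2 scale (adjusted p = 2.75e-06), MET by 0.28 ± 0.04 (adjusted p = 3.7e-06), IGF1R by 0.21 ± 0.04 (adjusted p = 1.33e-04), FGFR3 by 0.19 ± 0.05 (adjusted p = 0.0112) and FGFR4 by 0.12 ± 0.04 (adjusted p = 0.0242). FGFR2 was lower, with a log2 fold change of −0.14 ± 0.03 (adjusted p = 0.00317). The FGFR3 call was lost without DMSO replicate 1 or 2 of 6 h or replicate 2 of 24 h (adjusted p = 0.053, 0.0791 and 0.142). The FGFR4 call was lost without any 1 of the 4 vehicle libraries (adjusted p between 0.0891 and 0.145). In 9 of the 10 genes the libraries of the 2 times did not overlap, EGFR being the exception. With 2 libraries per time and no count over all genes, this only describes the values.

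Whether the effect of CC-671 changed between 6 h and 24 h was tested as the effect at 24 h minus the effect at 6 h, each against DMSO of its own time. At 3 µM this difference was positive for 5 receptor genes and negative for 3, against 25.6% of all genes positive and 23.7% negative. At 10 µM it was positive for 3 and negative for 2, against 27.6% of all genes positive and 26.4% negative. Without a scaling factor 61.9% of the called genes were positive at 3 µM, against 51.9% with scaling, and 61.3% at 10 µM, against 51.1% with scaling. The falls of EGFR, ERBB2 and MET at 6 h were smaller at 24 h at both doses, and EGFR showed the largest such difference, 0.48 ± 0.07 at 3 µM (adjusted p = 6.29e-06). The falls of FGFR2 and FGFR4 were deeper at 24 h at both doses, with −0.92 ± 0.05 for FGFR4 at 10 µM (adjusted p = 1.39e-14). For FGFR3 the difference did not pass the test at 3 µM (0.16, 95% interval 0.03 to 0.30, adjusted p = 0.0541) or at 10 µM (−0.01, −0.15 to 0.13, adjusted p = 0.912). The FGFR3 value at 3 µM was called without a scaling factor (0.24, adjusted p = 0.0154), without the filter on low counts (0.18, 0.00609), with the stricter filter (0.17, 0.0452), in a fit of the compared groups alone (0.16, 0.0472) and in 4 fits that each left out 1 library (0.19 to 0.22, 0.00994 to 0.0384). INSR did not pass it either, at 0.03 (−0.09 to 0.15) at 3 µM and −0.12 (−0.24 to 0.00) at 10 µM. Of the 1641 expressed protein-coding genes with 17 to 31 exons, 57.2% had a positive and 20.5% a negative difference at 10 µM. At 3 µM, 56.8% of them had a positive and 17.6% a negative difference.

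**Figure D4:**
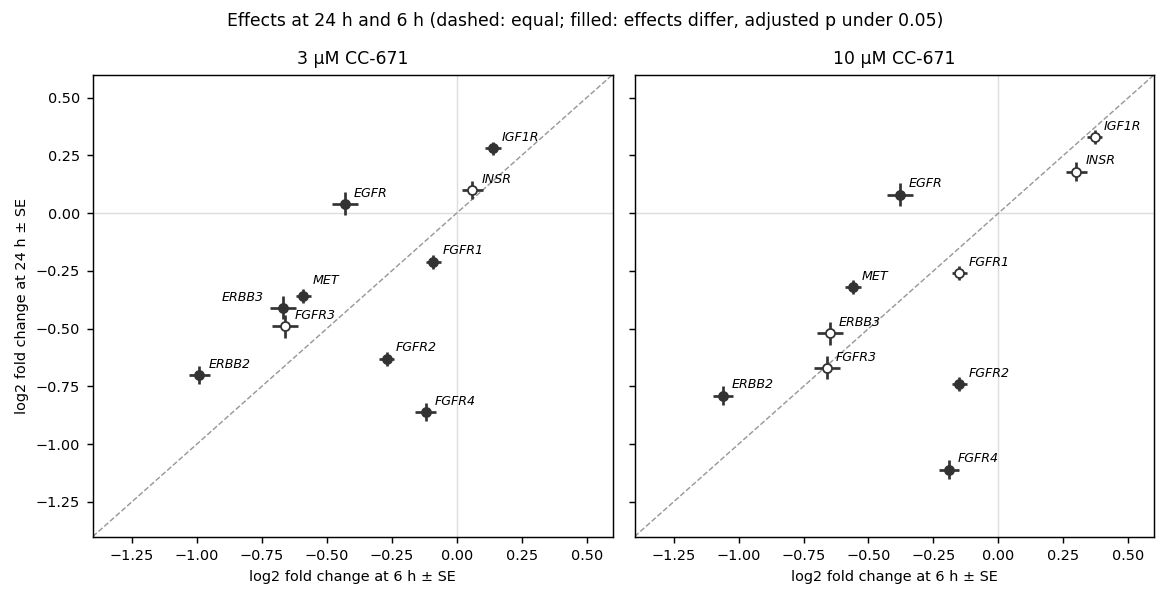
Effect of CC-671 at 24 h against its effect at 6 h for each receptor gene, as log2 fold change ± SE against DMSO of the same time, at 3 µM (left) and 10 µM (right). The dashed line marks equal effects and filled points have effects that differ at an adjusted p under 0.05. FGFR4 (−0.86 at 24 h and −0.12 at 6 h for 3 µM) and FGFR2 lie below the line, and EGFR (0.04 at 24 h and −0.43 at 6 h for 3 µM) lies above it.

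Among the receptor genes, the closest courses over the 6 group means, each gene centred on its own mean log2 CPM, were those of ERBB3 and MET, with a root mean square difference of 0.09, IGF1R and INSR, with 0.10, and FGFR2 and FGFR4, with 0.12. ERBB2 lay nearest to FGFR3, at 0.14. Among 12979 genes of at least moderate level, the course of ERBB2 was closest to those of NUP188 (0.030) and CCBL2 (0.033), that of FGFR4 to NOS3 (0.033) and HTR1D (0.038), and that of IGF1R to KLF11 (0.033) and FOXK1 (0.033). FGFR2 was closest to SRSF2 (0.027) and WDR1 (0.042), FGFR1 to TTYH3 (0.018) and SEPT8 (0.021), and FGFR3 to ZNF318 (0.040) and RUFY1 (0.041). MET was closest to USP32 (0.038) and TAF1 (0.039), and ERBB3 to SREBF2 (0.044) and NHS (0.045). These likenesses rest on 6 group means and describe the shape of the course only.

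Among genes related to the receptors, the counts called at 10 µM stand beside the shares over all genes of the same comparisons, 34.0% higher and 33.6% lower at 6 h, and 31.3% higher and 32.3% lower at 24 h. Nothing particular to a list is read from its count. Of 11 ERBB ligand genes, 9 were tested. At 10 µM, 3 rose and 1 fell at 6 h, and 3 rose and 2 fell at 24 h, so that the share that rose was close to that of all genes. EREG, which encodes epiregulin, an EGFR ligand, had 51.9, 51.7 and 50.4 CPM at 10 µM and 24 h, against 18.1 and 17.9 CPM with DMSO, a log2 fold change of 1.51 ± 0.28 (adjusted p = 6.21e-04). At 10 µM and 6 h EREG had 84.6, 45.3 and 40.0 CPM, against 24.6 and 29.1 CPM with DMSO (1.08 ± 0.27, adjusted p = 0.00385), so replicate 1 stood apart while all 3 lay above DMSO. EPGN, which encodes epigen, was near silent in vehicle and was called higher at 0.647, 0.620 and 0.509 CPM at 10 µM and 6 h, against 0.0167 and 0.00861 CPM with DMSO. BTC, which encodes betacellulin, fell at 6 h (−0.92 ± 0.15 at 10 µM, adjusted p = 5.36e-06), and TGFA, which encodes TGF-alpha, rose at 24 h at a low level (0.248 CPM at 10 µM, against 0.102 CPM with DMSO, adjusted p = 0.00367).

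Of 18 fibroblast growth factor genes, 8 were tested, and at 10 µM 2 rose and 2 fell at 6 h, and 3 rose and 2 fell at 24 h. FGF18, the most abundant in CPM, had 100, 99.7 and 113 CPM at 10 µM and 6 h, against 164 and 169 CPM with DMSO (log2 fold change −0.67 ± 0.04, adjusted p = 2.71e-14). FGF8 fell at 24 h to 2.2 CPM at 10 µM, against 4.38 CPM with DMSO (−0.99 ± 0.09, adjusted p = 8.47e-11), and FGF17 rose to 0.58 CPM, against 0.342 CPM (0.75 ± 0.22, adjusted p = 0.00405). Of HGF, IGF1, IGF2 and INS, 1 was tested. This was IGF2, a ligand of IGF1R, with 52.1, 51.5 and 52.6 CPM at 10 µM and 24 h, against 98.0 and 101 CPM with DMSO. IGF2 fell by 0.93 ± 0.04 on the log2 scale there (adjusted p = 2.14e-18) and by 0.15 ± 0.04 at 10 µM and 6 h (adjusted p = 6.6e-04), while its receptor gene IGF1R rose at both times.

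Of the 6 IGF binding protein genes, 3 rose while 0 fell at 10 µM for 6 h, and 0 rose while 3 fell at 10 µM for 24 h. IGFBP3, the most abundant, had 584, 567 and 597 CPM at 10 µM and 24 h, against 779 and 763 CPM with DMSO (log2 fold change −0.40 ± 0.03, adjusted p = 1.73e-11). IGFBP4 fell by 0.63 ± 0.05 and IGFBP2 by 0.43 ± 0.06 in the same comparison (adjusted p = 1.69e-12 and 1.46e-07). At 6 h, IGFBP6 (0.42 ± 0.10), IGFBP2 (0.20 ± 0.05) and IGFBP4 (0.12 ± 0.05) rose at 10 µM (adjusted p = 3.4e-04, 0.00151 and 0.0214).

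Downstream of the receptors, all 16 adaptor and docking protein genes were tested, and at 10 µM 7 rose and 6 fell at 6 h, beside 34.0% and 33.6% of all genes, and 4 rose and 8 fell at 24 h, beside 31.3% and 32.3%. SOS1, the exchange factor that activates RAS, had 44.8, 41.0 and 42.2 CPM at 10 µM and 6 h, against 75.2 and 80.6 CPM with DMSO (log2 fold change −0.87 ± 0.04, adjusted p = 2.69e-17). PLCG1, the phospholipase C recruited by EGFR and FGFRs, fell by 0.83 ± 0.06 there (adjusted p = 1.48e-08), and GAB2, a docking protein, rose by 0.57 ± 0.04 (adjusted p = 1.99e-13). At 24 h, GRB10, an adaptor that restrains INSR and IGF1R, had 70.5, 69.9 and 73.1 CPM at 10 µM, against 41.4 and 38.6 CPM with DMSO (0.83 ± 0.04, adjusted p = 9.3e-16). IRS1, the main substrate of INSR and IGF1R, had 21.2, 20.9 and 21.2 CPM at 10 µM and 24 h, against 31.8 and 31.2 CPM with DMSO (−0.58 ± 0.05, adjusted p = 9.12e-12). The libraries of these genes did not overlap between 10 µM and DMSO where values are given.

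All 19 genes of receptor-level inhibitors were tested, and at 10 µM 6 rose and 8 fell at 6 h, and 6 rose and 10 fell at 24 h. RNF41, a ubiquitin ligase that targets ERBB3 and is also called NRDP1, had 74.5, 72.3 and 69.3 CPM at 10 µM and 6 h, against 44.7 and 45.4 CPM with DMSO (log2 fold change 0.68 ± 0.03, adjusted p = 2.62e-16). LRIG2, of a family of membrane proteins that bind receptor tyrosine kinases, rose by 0.60 ± 0.05 (adjusted p = 2.16e-12). SPRY1, a Sprouty inhibitor of receptor signalling, fell by 0.40 ± 0.03 at 10 µM and 6 h (adjusted p = 1.48e-11), and CBLB, a ubiquitin ligase of activated receptors, fell by 0.49 ± 0.04 at 10 µM and 24 h (adjusted p = 1.46e-11). Of 8 co-receptor and decoy receptor genes, 6 were tested, and at 10 µM 4 rose and 1 fell at 6 h, and 1 rose and 3 fell at 24 h. CD44, a co-receptor of MET, rose at 6 h (0.32 ± 0.04, adjusted p = 1.35e-06), and IGF2R, which clears IGF2, fell (−0.26 ± 0.06, adjusted p = 7.31e-04).

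The other receptor tyrosine kinases offer a comparison, with 36 of 48 tested. At 6 h, 8 rose and 13 fell at 10 µM, and at 24 h 8 rose and 15 fell. Their median log2 fold change at 10 µM was 0.02 at 6 h and −0.07 at 24 h. Called changes of at least 2-fold at 10 µM were 3 higher and 2 lower at 6 h, and 2 higher and 4 lower at 24 h. Among all 22007 genes tested they were 2362 higher and 1489 lower at 6 h, and 2054 higher and 807 lower at 24 h. The genes named next are both from those that fell. RYK, a Wnt receptor, had 46.2, 43.1 and 45.8 CPM at 10 µM and 6 h, against 113 and 110 CPM with DMSO (−1.30 ± 0.03, adjusted p = 3.34e-22). PDGFRB, a platelet-derived growth factor receptor, had 31.6, 30.9 and 31.7 CPM at 10 µM and 24 h, against 71.1 and 72.0 CPM with DMSO (−1.19 ± 0.05, adjusted p = 7.11e-16).

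The last lists hold regulators known to act on transcripts or promoters of these genes. Of 12 splicing factor genes known to act on receptor exons, 2 rose while 7 fell at 10 µM for 6 h, beside 34.0% and 33.6% of all genes, and 2 rose while 5 fell at 10 µM for 24 h, beside 31.3% and 32.3%. ESRP2, an epithelial splicing factor of FGFR2, had 12.2, 11.4 and 12.6 CPM at 10 µM and 6 h, against 20.6 and 20.9 CPM with DMSO (log2 fold change −0.78 ± 0.06, adjusted p = 4.05e-12). SRSF3, an SR protein known for exon inclusion in INSR, had 342, 329 and 318 CPM, against 569 and 570 CPM (−0.79 ± 0.03, adjusted p = 1.58e-17). Of 6 FOXO and AP-2 factor genes, 3 rose while 2 fell at 10 µM for 6 h, and 2 rose while 2 fell at 10 µM for 24 h. TFAP2A, an AP-2 factor known to act on the ERBB2 promoter, had 112, 105 and 113 CPM at 10 µM and 6 h, against 145 and 146 CPM with DMSO (−0.41 ± 0.03, adjusted p = 9.17e-12). FOXO1 and FOXO4, of the factors restrained by AKT, rose by 0.14 ± 0.03 and 0.43 ± 0.08 there (adjusted p = 6.71e-04 and 1.66e-05). Counts per gene do not show which exons were used, so splice forms of FGFR2 and INSR were not measured here.

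**Figure D5:**
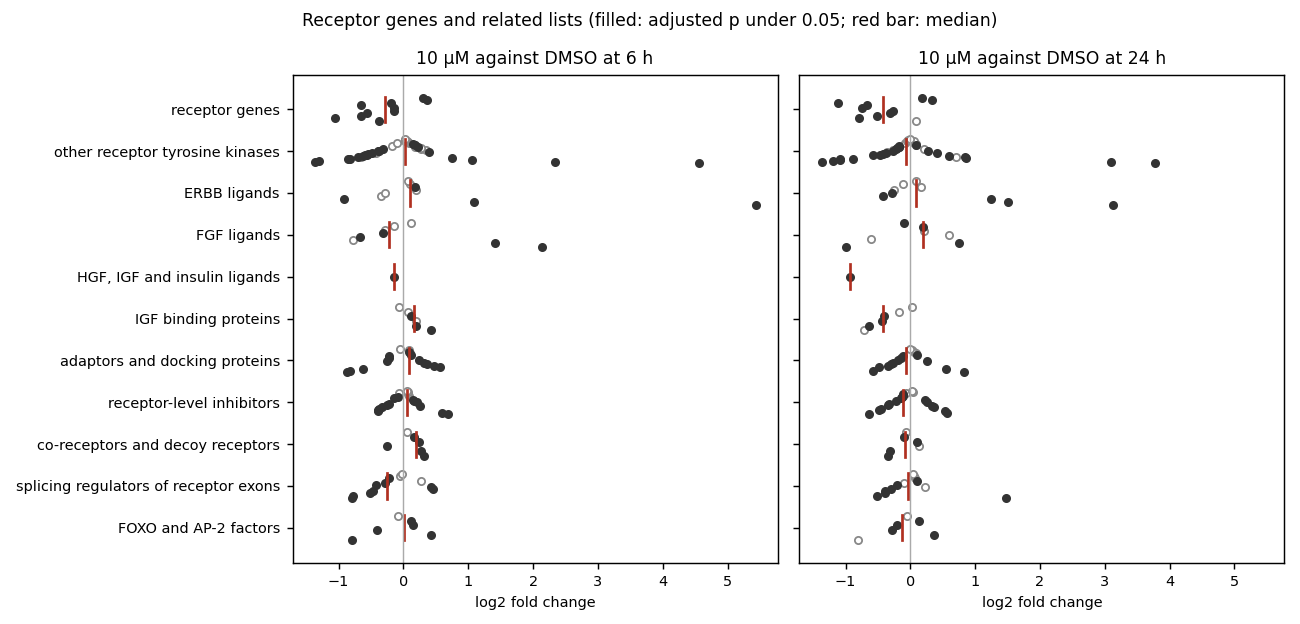
Log2 fold change of every tested gene at 10 µM against DMSO at 6 h (left) and 24 h (right), for the receptor genes in the top row and the related gene lists below, with filled points for adjusted p under 0.05 and red bars for medians. The receptor genes have medians of −0.28 and −0.42. The points far to the right include genes near silent in vehicle (CSF1R, EPGN, FGF21), and FGF21 is left out at 24 h because its vehicle libraries had no counts.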

How the data were processed

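RNA from CAL51 cells was sequenced as read pairs from strand-specific poly-A libraries, per the labels' protocols. The deposited files held raw counts per gene symbol for each library; STAR, HTSeq, edgeR and the build hg19 (GRCh37) are named in the submitters' processing notes, and versions, strand setting and annotation release are not stated there. Non-gene entries, 16.9 to 20.2% of pairs, were left out of library sizes and tests.

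Low counts were filtered with edgeR 4.0.16 (filterByExpr, at least 10 counts and a total of 15), and libraries were scaled by TMM, and fitted as 6 group means over all 16 libraries in R 4.3.3 with robust quasi-likelihood F tests, two-sided, and p-values were adjusted by Benjamini-Hochberg over 22007 genes in each of 9 comparisons. CPM were scaled by TMM, except in the sums of marker genes, which used library totals alone. Exon lengths came from GENCODE 29 and promoter windows from RefSeq (GRCh38.p14), so no positions of the counted genes are given. The method was tested on simulated data. Within each group, no library duplicated another. Libraries of different groups were not checked for this.

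The receptor genes and related lists were chosen with earlier results of these data known. All 10 receptor genes were described, plus up to 4 called members of a list with the largest absolute log2 fold changes in the comparison described, and, for each receptor gene called in all comparisons with vehicle, the 2 genes of average log2 CPM at least 1 with the closest course. Alternatives were DESeq2 1.42.0, RLE and no scaling, looser and stricter filters (1 CPM in 5 libraries), a fit of the compared groups alone, a block for the replicate number, and fits that left out 1 library at a time. Values of 2 genes of the related lists are not reported here.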

Additional observations from a re-analysis of the deposited data

Results flagged for a closer look

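The effect of CC-671 on 8 receptor genes differed between the times at 3 µM, by the interaction test of the edgeR fit, beside 25.6% of all genes with a positive and 23.7% with a negative difference. Of the 1641 expressed protein-coding genes with 17 to 31 exons, 56.8% had a positive and 17.6% a negative difference at 3 µM. Nothing particular to the receptor genes is read from the count of 8. The effect at 24 h minus the effect at 6 h was 0.48 ± 0.07 for EGFR on the log2 scale (adjusted p = 6.29e-06), 0.29 ± 0.05 for ERBB2 (adjusted p = 2.59e-05), 0.26 ± 0.07 for ERBB3 (adjusted p = 0.00416), 0.23 ± 0.05 for MET (adjusted p = 2e-04) and 0.13 ± 0.05 for IGF1R (adjusted p = 0.0244). It was −0.13 ± 0.04 for FGFR1 (adjusted p = 0.0204), −0.37 ± 0.04 for FGFR2 (adjusted p = 3.14e-08) and −0.74 ± 0.05 for FGFR4 (adjusted p = 1.76e-12).

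At 10 µM the difference passed the test for 5 receptor genes, beside 27.6% of all genes with a positive and 26.4% with a negative difference, so that the count of 5 of 10 is near the share of all genes. It was 0.45 ± 0.07 for EGFR (adjusted p = 9.15e-06), 0.27 ± 0.05 for ERBB2 (adjusted p = 4.63e-05), 0.24 ± 0.05 for MET (adjusted p = 9.22e-05), −0.59 ± 0.04 for FGFR2 (adjusted p = 2.31e-12) and −0.92 ± 0.05 for FGFR4 (adjusted p = 1.39e-14). The FGFR1 difference at 10 µM (adjusted p = 0.0515) gained a call with RLE scaling (−0.12, adjusted p = 0.0224), with DESeq2 (−0.12, 0.0117), with the stricter filter (−0.11, 0.0208), without DMSO replicate 1 of 6 h (−0.12, 0.0419) and without replicate 2 of the 10 µM libraries of 6 h (−0.11, 0.0421). The differences at both doses share their 4 vehicle libraries. At 3 µM the FGFR1 difference lost its call without a scaling factor (−0.05, adjusted p = 0.392), without the filter on low counts (−0.11, 0.0776), without either DMSO library of 24 h, and without DMSO replicate 2 of 6 h (−0.10, 0.135) or replicate 2 or 3 of the 3 µM libraries of 24 h. The IGF1R difference lost its call with RLE scaling (0.11, adjusted p = 0.0656), with DESeq2 (0.11, 0.0664), without either DMSO library of 24 h, and without DMSO replicate 2 of 6 h (0.09, 0.188).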

How the results depend on the processing

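No called receptor gene changed sign under any alternative run. Of 1190 values of single receptor genes under an alternative, 1119 kept their direction and side of the threshold, 31 lost the call, 26 gained one and 14 changed sign without being called. The number of receptor genes called stayed within 1.5 times the reported count except between the doses at 24 h, where a fit of the compared groups alone called 6 genes, against 3, and leaving out a library gave 1 to 3. Among all genes, the fit of the compared groups alone called 3420 genes between doses at 6 h, against 5480, and 3753 at 24 h, against 1397. Leaving out a library gave 654 to 858 genes between doses at 24 h, and 2604 to 3579 genes between 24 h and 6 h in DMSO, against 4522; the cause was not tested, although each such fit holds fewer libraries. The correlation of deviations from the group means between same-numbered libraries ranged from −0.44 to 0.45 (median −0.03, over 36 pairs). Between libraries with different numbers it ranged from −0.48 to 0.44 (median 0.02, over 70 pairs). Same-numbered libraries were thus no more alike by this measure. Deviations within a group offset each other, so the measure cannot exclude a pairing. With the replicate number as a block, 9, 10, 8 and 9 receptor genes were called against DMSO at 3 and 10 µM for 6 h and then for 24 h, and 13658, 14657, 13052 and 13711 of all genes, against 13909, 14870, 13339 and 14005 without it. Between doses the block gave 3 and 3 receptor genes and 5212 and 1270 of all genes at 6 h and 24 h, in DMSO over time 6 and 4285, and for the difference of effects 8 and 5 receptor genes and 10720 and 11784 of all genes. Depth bears less on the receptor genes, with at least 1062 pairs in every library, than on related genes under 1 CPM such as EPGN, TGFA and FGF17.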

Other observations

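Levels of the cells' lineage markers are given as sums of CPM without TMM factors. The 7 luminal markers summed to between 1957 and 2002 CPM at 10 µM and 24 h, against 1566 and 1606 CPM with DMSO, with 4 called higher and 3 lower. The 4 mesenchymal markers summed to between 1917 and 1979 CPM at 10 µM and 24 h, against 2246 and 2287 CPM with DMSO, with 1 called higher and 3 lower. Most of the DMSO sum was FN1, which averaged 2017 CPM with TMM factors, beside 212 CPM for VIM. The sum therefore mainly follows FN1. Over all genes, 31.3% were higher and 32.3% lower in that comparison, and nothing particular to a marker list is read from its count. At 10 µM and 6 h the luminal sum was between 1774 and 1845 CPM, against 1765 and 1774 CPM with DMSO, and the mesenchymal sum was between 1704 and 1942 CPM, against 1628 and 1841 CPM with DMSO, so that the mesenchymal ranges overlapped. The part of these markers in the receptor values was not tested.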
